A study of Mus musculus with 4 samples.

Results

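ONX0914, an inhibitor made to act preferentially on the immunoproteasome, was compared with MG132 and epoxomicin, which block proteasomes broadly, in J774.1 cells, a mouse monocyte-macrophage line. Each compound was given at 1 μM for 4 hours, and RNA was read on 1 single-color (Cy3) Agilent array per compound. Another array, from cells given the solvent DMSO for the same time, served only as the starting level. All 4 arrays lay on 1 slide that was scanned once, so each condition rests on 1 array and no replicate is at hand. The sources used here describe no genetic change of these cells and no other treatment. The array titled ONX carries a treatment tag that names ONX-0912, while its title fits the treatment protocol and the paper, which name ONX0914, and every value given for ONX0914 rests on that reading. A human array is named in the Methods, but the design stated in the file headers is a mouse one. A gene entered the comparison when its probe was well above background on all 3 inhibitor arrays, which held for 12777 of 20130 genes (63.5%).

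The proteasome degrades proteins tagged with ubiquitin, and its 20S core holds 3 kinds of catalytic subunit, β1, β2 and β5. In macrophages and in cells exposed to interferon-γ, these are replaced in part by β1i (*Psmb9*), β2i (*Psmb10*) and β5i (*Psmb8*), which together make the immunoproteasome. When proteasomes are blocked, proteins that are normally short-lived accumulate, among them p53, ATF4 and Nrf2, and unfolded proteins release the heat-shock factor HSF1 from its chaperones. MG132 is a peptide aldehyde and binds reversibly, while epoxomicin and ONX0914 are peptide epoxyketones that bind irreversibly. The submitters describe epoxomicin as a 20S inhibitor and ONX0914 as acting on β5 and β5i. Proteasome activity was not measured on these arrays.

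For each gene, the difference is the log2 signal with ONX0914 minus the mean of the log2 signals with MG132 and epoxomicin, each after subtraction of the array's 75th percentile. A negative difference means a lower signal with ONX0914. Signals are printed in array units after scaling to the 75th percentile of the ONX0914 array. With 1 array per compound there is no test of any difference, and a gene was counted when it differed by 2-fold or more. The median SD between repeated spots of a probe was at most 0.0614 on the log2 scale over the 4 arrays, which covers printing and reading but not the spread between cultures.

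ONX0914 differed from the broad inhibitors mostly by lower signals. Of the genes measured, 339 (2.65%) were 2-fold or more lower with ONX0914 and 81 (0.634%) were 2-fold or more higher, while the median difference of all genes was 0.04. Counts of list members past this limit, given below, are to be read beside these percentages. Counted against each broad array separately, 220 genes were lower than both by 2-fold or more and 48 were higher than both. Among the 3 pairs of arrays, the SD of the differences over all genes was 0.41 for ONX0914 minus MG132, 0.49 for ONX0914 minus epoxomicin and 0.22 for epoxomicin minus MG132. The 2 epoxyketones were thus farther apart than epoxomicin and the aldehyde, a description of these arrays that cannot be told apart from the spread between cultures. Between epoxomicin and MG132, 22 genes were higher and 33 were lower with epoxomicin by 2-fold or more. Dim genes held more of the calls, with 40 higher and 138 lower in the dimmest 25% of genes against 8 and 69 in the brightest 25%.

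**Figure D1:**
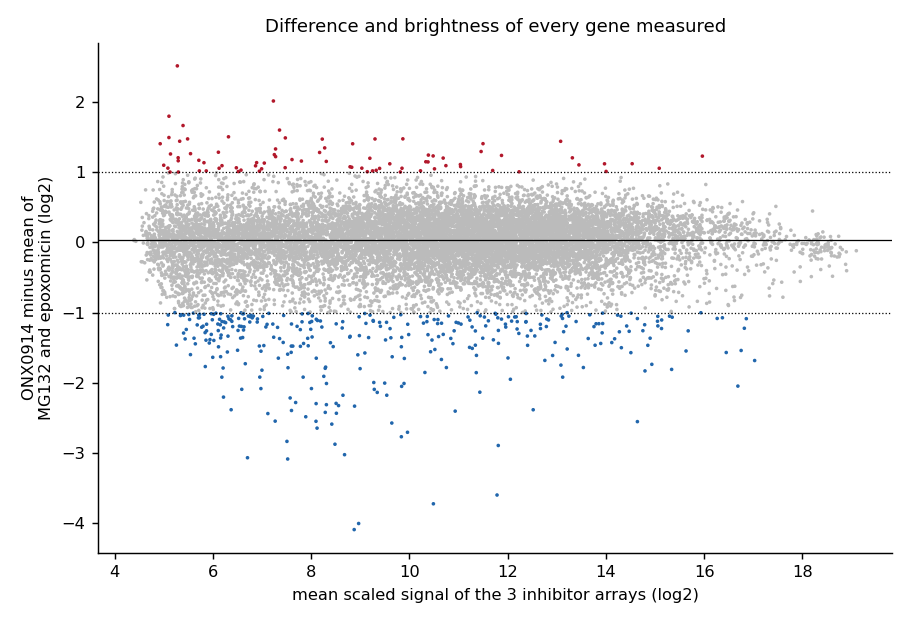
Each point is 1 of the 12777 genes measured, with the mean log2 scaled signal of the 3 inhibitor arrays on the horizontal axis and the difference, ONX0914 minus the mean of MG132 and epoxomicin in log2, on the vertical axis. Blue marks the 339 genes at least 2-fold lower and red the 81 at least 2-fold higher (dotted lines), the solid line is the median of all genes at 0.04, and the blue points reach farther from it than the red ones.

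The DMSO array shows where these differences lay. Of the 339 genes lower with ONX0914, 246 (72.6%) were genes that were at least 2-fold above DMSO with both broad inhibitors. Of the 81 higher genes, 53 (65.4%) were at least 2-fold below it with both. The same broad arrays enter the difference and the distance from DMSO, so part of this overlap is built in. Over all 12729 genes measured on the 4 arrays, 709 were 2-fold or more above DMSO with both MG132 and epoxomicin. Another 333 were 2-fold or more below DMSO with both. The share kept is the log2 distance of ONX0914 from DMSO as a percentage of the mean log2 distance of the broad inhibitors. A gene under 25% is called spared, 25 to under 75% weakened, and 75% or over kept. Because the broad arrays chose these genes and all distances start from the same DMSO array, the shares are a description.

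The share kept was about the same upward and downward. Its median was 52.2% over the 709 genes above DMSO and 51.2% over the 333 genes below. Of the 709, 108 (15.2%) were spared, 503 (70.9%) were weakened and 98 (13.8%) were kept, and 14 of them went past the broad inhibitors. Of the 333, 21 (6.31%) were spared, 281 (84.4%) weakened and 31 (9.31%) kept. The median of the MG132 distance as a percentage of the epoxomicin distance was 91.7% in the higher and 97.7% in the lower genes. Both broad arrays had to pass the 2-fold limit for a gene to enter, and ONX0914 did not. The choice of genes thus keeps this percentage from falling low, and it is no yardstick for the share kept by ONX0914. When genes were chosen on MG132 alone and ONX0914 was set against epoxomicin, the median share of the higher genes was 51.2%, and with the roles exchanged it was 51.8%.

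**Figure D2:**
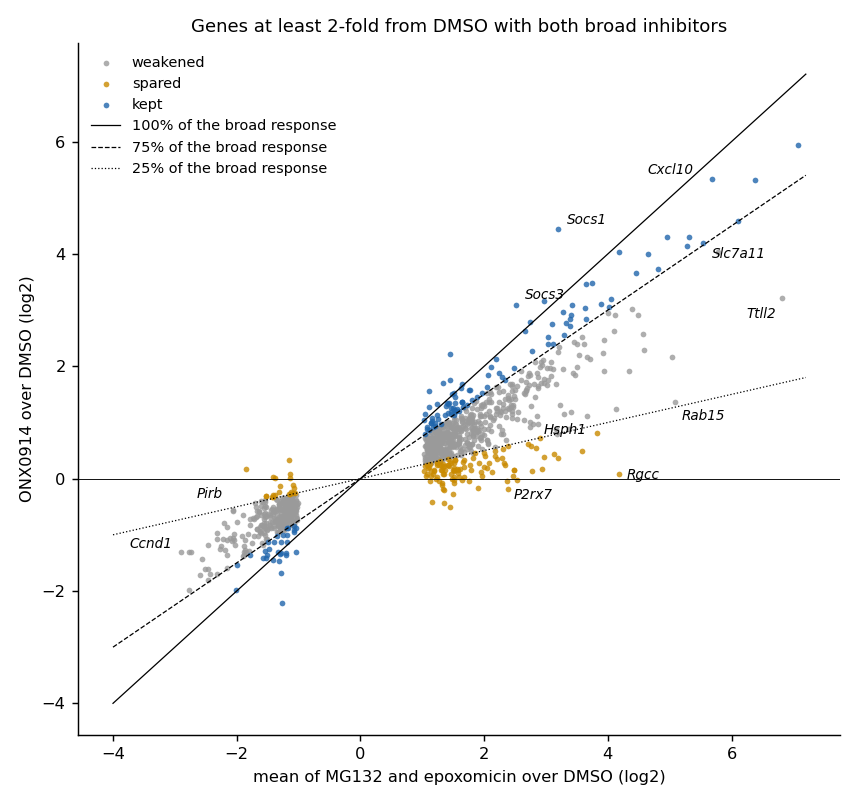
Each point is a gene at least 2-fold from DMSO with both broad inhibitors, 709 above and 333 below, with the mean log2 distance of MG132 and epoxomicin from DMSO on the horizontal axis and that of ONX0914 on the vertical axis. Lines mark 100%, 75% and 25% of the broad response, and colors mark genes called spared (gold), weakened (gray) and kept (blue). Most points lie between the 25% and 75% lines, the upper arm holds kept genes up to its far end, and *Socs1* and *Socs3* lie above the 100% line.

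Several genes far above DMSO with the broad inhibitors were at the DMSO level with ONX0914. Among genes 4-fold or more above DMSO with both broad inhibitors, the 8 with the lowest share kept were *Plekhg4*, *P2rx7*, *Gimap6*, *Tuba3b*, *Rgcc*, *Cbs*, *Cyp4f18* and *Saa3*, from -7.63% to 6.52%. *P2rx7*, an ATP-gated cation channel of macrophages, had a scaled DMSO signal of 661, against 3020.1 for MG132, 3831 for epoxomicin and 643 for ONX0914, and its other probes gave differences of -2.75 and -2.63 beside -2.40. *Rgcc*, a regulator of the cell cycle, had 66.5, 712, 2048 and 70.8 in the same order. ONX0914 and DMSO lay together for both genes, and the broad inhibitors lay above. *Cbs*, which makes cystathionine from homocysteine, read 74.9 on the DMSO array, 394 on that of MG132, 666 on that of epoxomicin and 81.8 on that of ONX0914. *Saa3*, an acute-phase serum amyloid, read 115, 570.1, 727 and 129. *Gimap6*, a GTPase of immune cells, read 85.8, 409.6, 594 and 84.3. All 3 genes repeat this order of arrays.

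At the other end, 8 genes 4-fold or more above DMSO with both broad inhibitors had the highest shares kept, namely *Socs1*, *Socs3*, *Ddit3*, *Cd274*, *Irf1*, *Gbp2b*, *Osm* and *Cd69*, from 139% down to 95.2%. *Socs1* and *Socs3* encode feedback inhibitors of JAK-STAT signaling. *Socs1* had a scaled DMSO signal of 308, against 2557 for MG132, 3107 for epoxomicin and 6654 for ONX0914, which made it 2.36-fold higher with ONX0914 than with the broad inhibitors. *Socs3* read 2765, 13239, 18859.8 and 23634, a difference of 0.58. In both genes ONX0914 gave the highest of the 4 signals. *Cd274*, the checkpoint ligand PD-L1, read 356, 2254, 2534 and 2446. *Osm*, the cytokine oncostatin M, read 334, 1563, 1504 and 1457. *Cd69*, an early activation antigen of leukocytes, read 1025, 11161, 14646 and 11333. For these 3 genes the inhibitor arrays lay close together, far above DMSO.

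**Figure D3:**
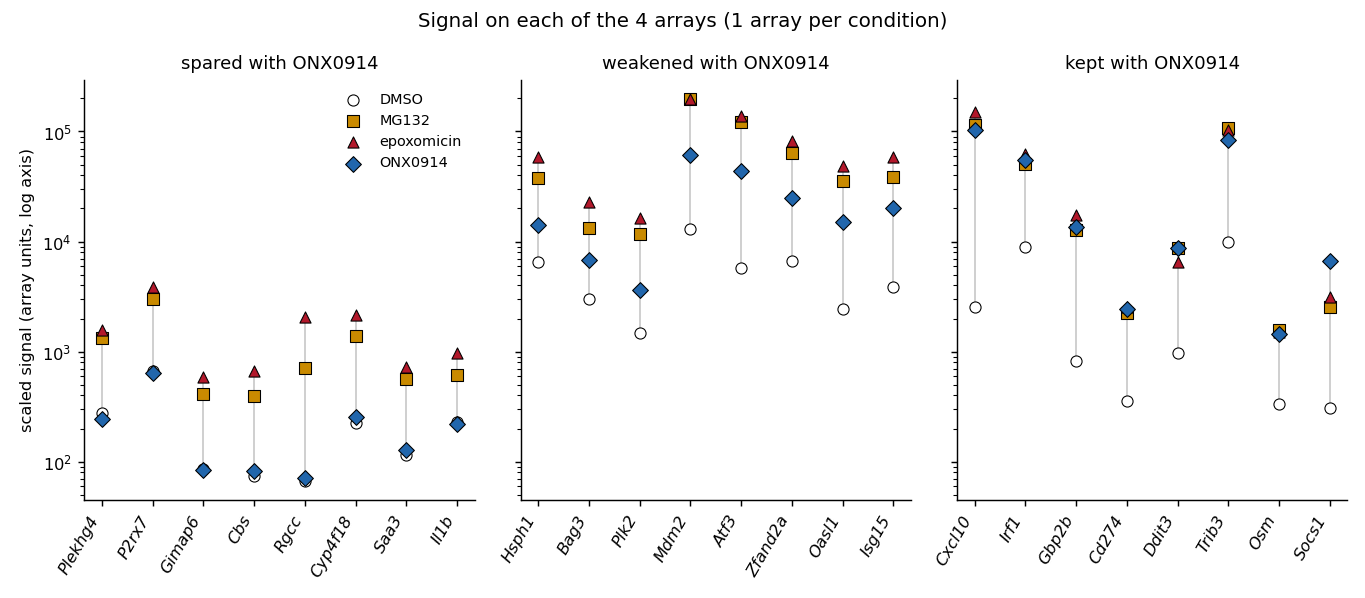
Scaled signals in array units (log axis) of 24 genes on each of the 4 arrays, with 1 marker per array and a gray line from the lowest to the highest. The genes were picked as examples. With ONX0914, the genes on the left lie at the DMSO level and those in the middle lie between DMSO and the broad inhibitors. Those on the right lie near the broad inhibitors, some below both, such as *Cxcl10* and *Trib3*, and *Socs1* lies well above both. Kept genes that were 2-fold or more lower with ONX0914, such as *Rsad2*, are not shown.

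The type I interferon-stimulated genes, antiviral genes driven by the ISGF3 complex, had lower signals with ONX0914 than the mean of the broad inhibitors. Of 44 genes on the list 39 were measured, all 39 had negative differences, 13 were lower by 2-fold or more and none was higher, and the median difference was -0.89, against 0.04 for all genes. Over all genes measured, 45.9% had negative differences and 2.65% were lower by 2-fold or more. *Rsad2*, which encodes viperin, had a scaled DMSO signal of 642, against 44024 for MG132, 64815 for epoxomicin and 25519.8 for ONX0914, a difference of -1.07 and a share kept of 83.3%. *Isg15*, a ubiquitin-like modifier, read 3889, 38476, 59084 and 20369.6, a difference of -1.23. *Oasl1*, a member of the oligoadenylate synthetase family, read 2419.7, 35780.3, 48220.3 and 15034, a difference of -1.47. In these 3 genes epoxomicin gave the highest signal, MG132 the next, and ONX0914 stood between MG132 and DMSO.

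*Ifit1bl1* had the lowest difference of the type I list at -2.09, with signals of 124 (MG132), 196 (epoxomicin) and 36.5 (ONX0914), and it was not well above background with DMSO. *Slfn1* had the highest at -0.10. *Ifit1*, which binds foreign RNA, read 5737 with MG132 and 5851 with ONX0914, and it was the only member for which ONX0914 was not below both broad arrays. *Ifit3* (difference -0.78) and *Ifit3b* (-1.14) are close copies, as are *Oas1a* and *Oas1g*, and their probes may read each other's transcripts. Among its transcription factors, *Irf9* stood at -0.57, *Stat2* at -0.89 and *Irf7* at -1.09. The 2-fold limit ran through the list, with *Ddx58*, an RNA sensor, just inside at -1.001 and *Usp18*, which removes ISG15 from proteins, just outside at -0.999. Over the 35 members at least 2-fold above DMSO with both broad inhibitors, the median share kept was 62.7%, from 45.7% (*Bst2*) to 92.8% (*Ifit1*), and none was spared. Of all 709 such genes, 15.2% were spared.

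Most responding genes of the interferon-γ program counted as kept by this share, though most members had lower signals with ONX0914 than with the broad inhibitors. This list of 28 genes holds the guanylate-binding proteins, the immunity-related GTPases and their regulators, and 27 were measured, with a median difference of -0.65. Of these, 6 were lower by 2-fold or more (*F830016B08Rik*, *Gbp3*, *Gbp7*, *Tgtp1*, *Gm4841* and *Gbp9*) and 1, *Socs1*, was higher. Over all genes measured, 2.65% were lower and 0.634% higher by that limit. Of the 27, 23 were below both broad arrays (4932 of 12777 over all genes). Over the 24 members at least 2-fold above DMSO with both broad inhibitors, the median share kept was 79.6%, with 15 kept, 9 weakened and none spared. Of all 709 such genes, 13.8% were kept, 70.9% weakened and 15.2% spared. *Irf1*, a transcription factor of interferon responses, had a scaled DMSO signal of 8912, against 50671 for MG132, 62108 for epoxomicin and 55069.6 for ONX0914. *Gbp2b*, a guanylate-binding protein, read 824, 12645, 17539.6 and 13504. For both genes ONX0914 fell between the broad inhibitors. *Gbp3* read 1185, 11164, 16249 and 4701, a difference of -1.52, and *F830016B08Rik*, a GTPase of the same class, had the lowest difference, -1.53.

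Promoter windows of 4 genes are shown as examples of kept genes (*Cxcl10*, *Gbp2b* and *Irf1*) and a weakened heat-shock gene (*Hsph1*), and the genes were chosen with their values known. A motif was set for each gene, and the first window holding it was printed, so each match was fixed in advance. Other motifs are not marked, and the windows do not contrast these genes. Each window is the 250 bases before the annotated start, from RefSeq on GRCm38.p6, written 5′ to 3′ on the strand of the gene, and capitals mark the motif named for it.
Cxcl10, chr5:92348890-92349139, minus strand, GAAANNGAA of the interferon-stimulated response element: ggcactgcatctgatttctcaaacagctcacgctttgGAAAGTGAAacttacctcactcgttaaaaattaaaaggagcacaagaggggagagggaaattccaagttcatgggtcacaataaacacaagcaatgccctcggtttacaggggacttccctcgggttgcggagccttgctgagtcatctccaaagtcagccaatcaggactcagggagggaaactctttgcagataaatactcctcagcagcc
Gbp2b, chr3:142594597-142594846, plus strand, GAAANNGAA on the opposite strand: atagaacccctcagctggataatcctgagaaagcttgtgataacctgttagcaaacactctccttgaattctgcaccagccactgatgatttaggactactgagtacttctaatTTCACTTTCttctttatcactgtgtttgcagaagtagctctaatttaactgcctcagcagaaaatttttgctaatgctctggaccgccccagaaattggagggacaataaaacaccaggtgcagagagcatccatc
Irf1, chr11:53769764-53770013, plus strand, TTCNNNGAA of STAT sites: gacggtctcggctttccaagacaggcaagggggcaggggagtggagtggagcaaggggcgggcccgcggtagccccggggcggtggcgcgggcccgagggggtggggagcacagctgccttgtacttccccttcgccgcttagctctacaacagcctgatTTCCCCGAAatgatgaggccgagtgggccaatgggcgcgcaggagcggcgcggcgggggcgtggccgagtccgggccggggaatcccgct
Hsph1, chr5:149636337-149636586, minus strand, TTCNNGAA of the heat-shock element: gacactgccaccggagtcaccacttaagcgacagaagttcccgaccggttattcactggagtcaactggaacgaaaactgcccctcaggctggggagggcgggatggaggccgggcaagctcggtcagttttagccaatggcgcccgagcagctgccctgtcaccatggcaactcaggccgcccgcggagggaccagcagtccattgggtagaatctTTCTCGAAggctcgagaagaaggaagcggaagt

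Motifs were searched on both strands in windows from 250 bases before to 50 bases after the start, and 10213 of the 12777 genes had a window. A promoter with several motifs was counted under each, and genes with several starts gave several windows. Among the 98 kept genes above DMSO, 83 windows were found, of which 21.7% held GAAANNGAA, 18.1% TTCNNNGAA and 2.41% (2 windows) TTCNNGAA. Among the 611 weakened or spared genes, 632 windows were found, of which 13.4% held GAAANNGAA, 9.65% TTCNNNGAA and 8.39% (53 windows) TTCNNGAA. Over the windows of all genes measured the shares were 7.47%, 7.29% and 6.92%, and over all 32851 windows they were 8.56%, 8.30% and 8.52%. In the 323 windows of the 339 genes lower with ONX0914 they were 13.6%, 10.2% and 8.05%. In the 75 windows of the 81 higher genes each was 8%. For the remaining motifs, shares are given for the kept genes and then the weakened or spared genes. TGACNNNGC (antioxidant response element) was in 18.1% and 14.6% of windows, and GAANNTTC (heat-shock element) in 1.20% (1 window) and 8.23%. TTGCATCA (ATF4 element) was in 3.61% (3 windows) and 2.06%, and TGCNCNC (metal response element) in 55.4% and 57.8%. The windows of the lower genes held TTGCATCA in 2.17%, against 0.758% over all genes measured. No difference between these shares was tested, and a match is a stretch of letters and not a bound site.

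**Figure D4:**
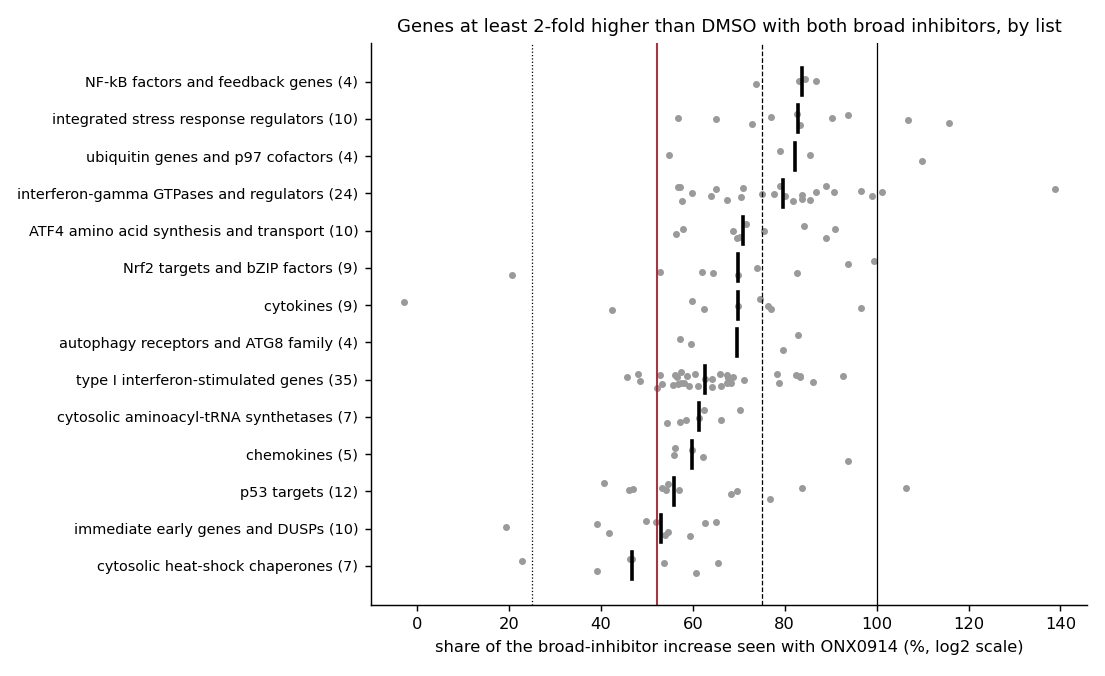
Share of the broad-inhibitor increase over DMSO seen with ONX0914 (%, log2 scale) for genes at least 2-fold above DMSO with both broad inhibitors, in the 14 lists with at least 4 such genes (number in brackets). Points are genes, black bars list medians, the red line is the median of all 709 such genes (52.2%), and the other lines mark 25%, 75% and 100%. The medians of NF-kB genes, integrated stress response regulators, ubiquitin genes and interferon-γ genes are above 75%, and that of heat-shock chaperones is the lowest of the 14 lists, at 46.8%.

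Chemokines and cytokines differed from gene to gene. Among the ligands of CXCR3, *Cxcl10* read 2552 on the DMSO array, 115085 on that of MG132, 149399 on that of epoxomicin and 102756 on that of ONX0914, a difference of -0.35 with 93.8% kept. *Cxcl9* was not well above background with DMSO and read 3644, 6890.2 and 1849 with MG132, epoxomicin and ONX0914, a difference of -1.44, which its other probe repeated at -1.49. *Cxcr3* itself read 1366 with DMSO, 707, 773 and 584, so that all 3 inhibitors lay below DMSO. Of 20 chemokines 13 were measured, 3 were lower by 2-fold or more with ONX0914 (*Cxcl9*, *Cxcl2* at -1.33, which recruits neutrophils, and *Ccl7* at -1.09, which recruits monocytes) and none was higher, with a median of -0.35. *Ccl24* had the highest difference of these chemokines at 0.63. Over all genes measured, 2.65% were lower by 2-fold or more.

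Of 25 cytokines 19 were measured, with a median difference of -0.35. Of these, 6 were lower by 2-fold or more with ONX0914, against 2.65% of all genes. *Il10*, which restrains macrophage activation, was well above background with 136 (MG132), 328 (epoxomicin) and 25.2 (ONX0914) but not with DMSO, and its difference of -3.07 was the lowest of the list. *Il1b*, a pyrogen processed by the inflammasome, read 230.1 with DMSO, 617, 967 and 222, so that ONX0914 and DMSO lay together. *Il1rn*, its natural antagonist, had a difference of -1.48 and a share kept of 62.5%. *Gdf15*, a stress cytokine, stood at -1.75, *Csf1*, the growth factor of macrophages, at -1.13 and *Lif* at -1.13. *Tnf* had the highest difference of the list, with 11296 for DMSO, 5218 for MG132, 4379 for epoxomicin and 8844 for ONX0914. The broad inhibitors lay well below DMSO for *Tnf*, and ONX0914 lay nearer to DMSO. *Ltb*, another TNF family ligand, read 9833, 2181, 1453 and 2799.9.

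Among 18 measured NF-kB factors and feedback genes, none differed by 2-fold, and the median was -0.05. The range ran from *Tnfaip3*, which encodes the inhibitor A20, at -0.77 to *Nfkbid*, a nuclear IκB protein, at 0.88. *Nfkbia*, the main IκB, had signals of 22826 for DMSO, 24459 for MG132, 17449 for epoxomicin and 31678 for ONX0914, the highest of the 4 arrays. The median of this list ran from -0.12 against MG132 alone to 0.03 with scaling to each array's median.

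The genes of the proteasome itself differed little. None of the 14 subunits of the 20S core differed by 2-fold, 13 were above both broad arrays with this scaling, and the median difference was 0.18. Of all genes measured, 6013 of 12777 were above both broad arrays with the same scaling. *Psma7* was the highest at 0.40 and *Psmb7* the lowest at 0.04. *Psmb5*, which encodes β5, read 125788 on the DMSO array, 132336 on that of MG132, 125233 on that of epoxomicin and 140623 on that of ONX0914. Of 27 subunits of the 19S cap and assembly factors none differed by 2-fold either, with a median of 0.20 and a range from *Psmg3* at -0.32 to *Pomp*, the chaperone of core assembly, at 0.69. The immunoproteasome subunits read 20838, 18639.7, 19229.5 and 22120.5 for *Psmb8* (DMSO, MG132, epoxomicin, ONX0914), with a difference of 0.22. *Psmb9* stood at -0.15 and *Psmb10* at 0.24. Over 17 genes of the immunoproteasome and of class I loading the median was -0.04, a sign that turned with other scalings, and only *Nlrc5*, the transactivator of class I genes, at -0.90 and the peptide transporter *Tap1* at -0.68 lay below -0.5.

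Of 21 ubiquitin genes and p97 cofactors, 1 was lower by 2-fold or more with ONX0914. This was *Zfand2a*, which encodes the proteasome-binding protein AIRAP, with 6729 for DMSO, 64344 for MG132, 81860 for epoxomicin and 24839.6 for ONX0914. *Ubqln2*, a ubiquitin shuttle protein, had the highest difference at 0.44. The median of the list was -0.03, and its sign turned with other scalings.

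Among the cytosolic heat-shock genes, many of them targets of HSF1, 25 of 30 were measured. Of these, 4 were lower by 2-fold or more with ONX0914, against 2.65% of all genes. None was higher, and the median difference was -0.45. Below both broad arrays were 20, and 5 were above both, against 4932 and 6013 of 12777 over all genes. *Hsph1*, an Hsp110 chaperone whose promoter is printed above, read 6480.3 on the DMSO array, 37463 on that of MG132, 58432 on that of epoxomicin and 14037 on that of ONX0914, with a difference of -1.74 and -1.83 on its other probe. *Hsp90aa1*, the inducible Hsp90, read 39485, 139296, 178476 and 54233, with a share kept of 22.9%. *Dnajb1*, the main Hsp40, read 15950, 26952, 50558 and 15432. In these genes epoxomicin lay above MG132, and ONX0914 lay nearest to DMSO. *Bag3*, a co-chaperone of Hsp70, had a difference of -1.37 and a share kept of 46.4%. *Dnajb2* was the highest at 0.29. *Hspa1a*, an inducible Hsp70, was well above background with MG132 (167) and epoxomicin (195) but not with ONX0914 or DMSO, which made it at least 9.34-fold lower with ONX0914. Over the 7 members at least 2-fold above DMSO with both broad inhibitors the median share kept was 46.8%, and none was kept. Of all 709 such genes, 13.8% were kept.

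Regulators of the integrated stress response, which acts through ATF4, were mostly kept by share, though most had lower signals than with the broad inhibitors. *Ddit3*, which encodes CHOP, read 971 on the DMSO array, 8669 on that of MG132, 6590.2 on that of epoxomicin and 8684 on that of ONX0914. *Atf4* read 99672, 216822, 211589 and 241575, and *Trib3*, a target of both, 9816, 108344, 102251 and 83443. For *Atf4* the ONX0914 array was the highest, for *Ddit3* it matched MG132, and for *Trib3* it was the lowest of the inhibitors. *Atf4* and *Ddit3* were the only 2 measured members with positive differences. *Atf3*, a stress-induced repressor, was the only member lower by 2-fold or more, at -1.57, with 65.0% kept. Over 12 measured genes the median difference was -0.41, and 10 were below both broad arrays (4932 of 12777 over all genes). Over the 10 members at least 2-fold above DMSO with both broad inhibitors the median share kept was 82.9%, with 7 kept and 3 weakened.

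Downstream of ATF4, 17 genes of amino acid synthesis and transport were measured, with a median difference of -0.30. Of these, 3 were lower by 2-fold or more, against 2.65% of all genes. *Slc7a11*, the cystine transporter, read 26.9 on the DMSO array, 1334 on that of MG132, 1181 on that of epoxomicin and 491 on that of ONX0914. *Cth*, which makes cysteine from cystathionine, stood at -1.09 and *Slc6a9*, a glycine transporter, at -1.02, and *Psph*, a serine-synthesis phosphatase, was the highest at 0.41. None of the 20 cytosolic aminoacyl-tRNA synthetase genes differed by 2-fold, with a median of -0.36 and a range from *Cars* at -0.64 to *Xpot*, a tRNA exporter on this list, at 0.16.

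Of 26 endoplasmic reticulum chaperones and unfolded-protein-response genes, none was higher by 2-fold or more and 1 was lower. The median difference was 0.27, and 19 were above both broad arrays, as were 6013 of all 12777 genes. *Calr*, a lectin chaperone, read 58750.5 on the DMSO array, 38443 on that of MG132, 37888 on that of epoxomicin and 62625 on that of ONX0914, a difference of 0.71. *Hspa5*, the chaperone BiP, read 108700, 169592, 148014 and 155204, a difference of -0.03. ONX0914 lay with DMSO for *Calr* and with the broad inhibitors for *Hspa5*. *Dnajb9*, a co-chaperone induced through XBP1, was the exception at -1.19, with 22.1% kept.

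Among 29 measured Nrf2 targets and bZIP factors the median difference was -0.03, with a sign that turned under other settings, and 1 was lower by 2-fold or more. *Hmox1*, heme oxygenase, read 8439.8 on the DMSO array, 46637 on that of MG132, 41485 on that of epoxomicin and 20191 on that of ONX0914, a difference of -1.12. *Osgin1* (99.5% kept) and *Gclm*, the modifier subunit of glutathione synthesis (82.7% kept), stood higher, and *Gstm1*, a glutathione transferase, had the highest difference at 0.81. Of 10 genes for metallothioneins and metal handling, *Slc40a1*, the iron exporter, was lower by 2-fold or more at -1.13, with 27.5% kept. *Mt1* and *Mt2* stood at -0.54 and -0.78, and *Tfrc*, the transferrin receptor, was the highest at 0.24, though its other probes ran from -0.06 to 0.00.

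Of 21 targets of p53 19 were measured, of which 3 were lower by 2-fold or more with ONX0914, against 2.65% of all genes, and none was higher. The median difference was -0.74, and 15 of the 19 were below both broad arrays (4932 of 12777 over all genes) and 4 had positive differences. *Mdm2*, the ubiquitin ligase of p53, read 12995 on the DMSO array, 196713 on that of MG132, 197797 on that of epoxomicin and 61435 on that of ONX0914. *Plk2* read 1474, 11794, 16310.2 and 3666, and *Pmaip1*, which encodes the BH3-only protein NOXA, 2909, 19419.6, 20038 and 7146. These were the 3 members past the limit, at -1.68, -1.92 and -1.46, and in each ONX0914 lay between DMSO and the broad inhibitors. *Cdkn1a*, the cell-cycle inhibitor p21, stood at -0.92 with 68.4% kept. *Sesn1* was the highest at 0.52, and the broad inhibitors lay below DMSO for it.

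In the BCL2 family the largest difference was that of *Bcl2l11*, which encodes the BH3-only protein BIM. It read 211 on the DMSO array, 1443 on that of MG132, 2399 on that of epoxomicin and 285 on that of ONX0914, a difference of -2.71 with 13.8% kept. *Bbc3*, which encodes PUMA and is on the p53 list, stood at -0.74 with 69.6% kept. *Bak1*, an effector of the mitochondrial pathway, had the highest difference of the family at 0.60. Over 11 measured genes the median was 0.24, which ran from 0.01 to 0.36 over the alternative settings.

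Immediate early genes and dual-specificity phosphatases had a median difference of -0.64 over 23 measured genes. Of these, 7 were lower by 2-fold or more, against 2.65% of all genes. *Nr4a1*, an orphan nuclear receptor, read 414 on the DMSO array, 711 on that of MG132, 1355 on that of epoxomicin and 246 on that of ONX0914. *Fos* read 193, 317, 509.8 and 128, and *Jun*, its AP-1 partner, 20797, 45979.5, 57196 and 24748. ONX0914 was below DMSO for *Nr4a1* and *Fos* and slightly above it for *Jun*. *Fosb* (-1.13), *Klf6* (-1.08), *Dusp1* (-1.07) and *Ier3* (-1.06) were the other members past the limit, and *Klf2*, a factor of quiescence, was the highest at 0.87. Over the 10 members at least 2-fold above DMSO with both broad inhibitors the median share kept was 53.02%.

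**Figure D5:**
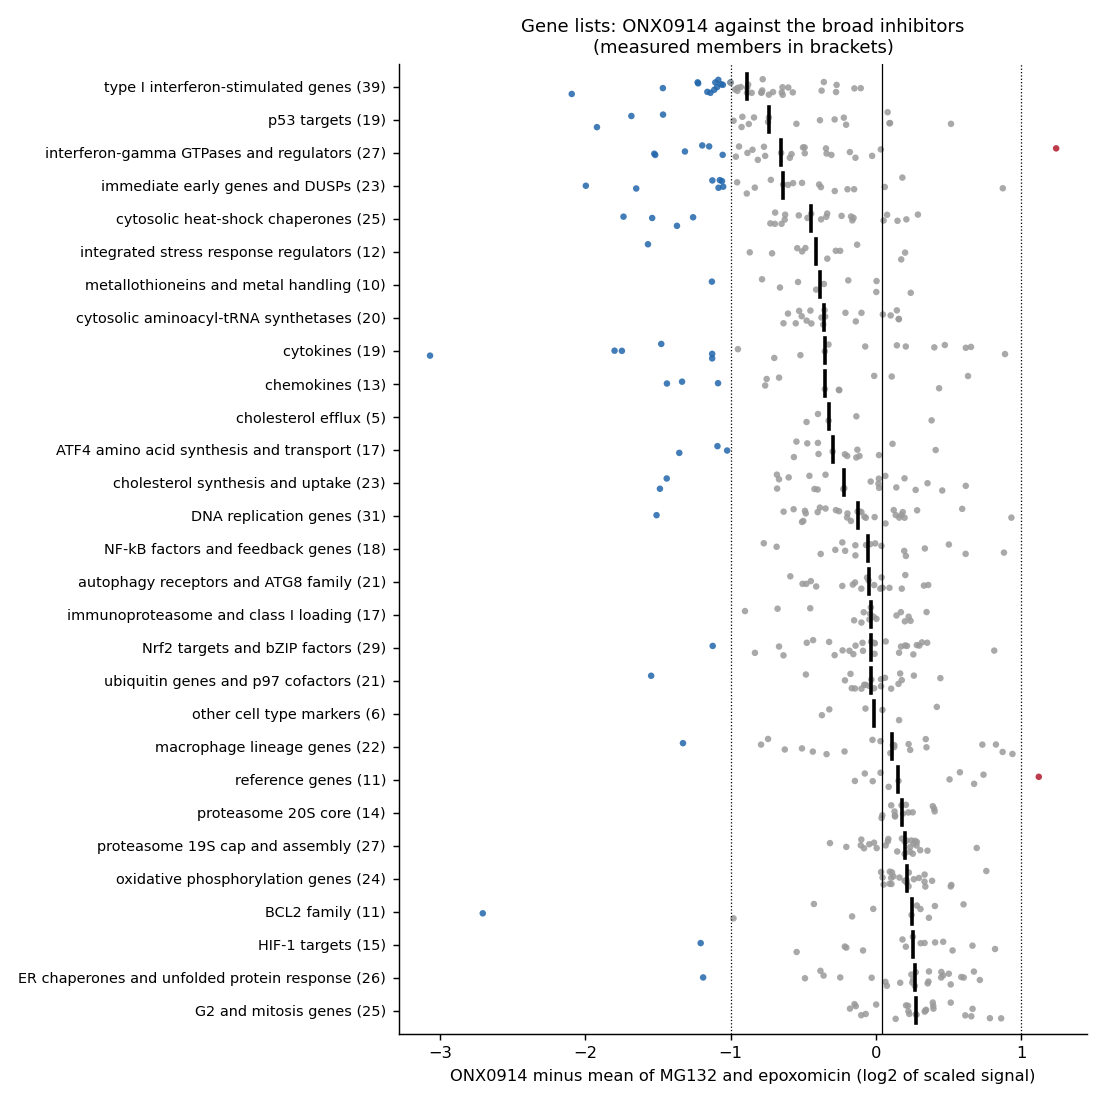
Difference of ONX0914 from the mean of MG132 and epoxomicin (log2) for every measured member of the 29 gene lists, with the number of measured members in brackets. Black bars are list medians, dotted lines the 2-fold limits, and the solid line the median of all genes (0.04), with blue and red points at least 2-fold lower or higher. The medians of the interferon, p53 and immediate early lists are the lowest 4, from -0.89 to -0.64, and that of the mitosis list is the highest, at 0.28.

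Genes far below DMSO with the broad inhibitors were less far below it with ONX0914. Among genes 4-fold or more below DMSO with both, the 8 with the lowest share kept were *Trappc1*, *Chst12*, *Lfng*, *Arhgef39*, *Sh2d3c*, *Ccnd1*, *H3c8* and *Ankle1*, from 36.0% to 48.1%. *Ccnd1*, cyclin D1, read 41449.5 on the DMSO array, 6629.7 on that of MG132, 5796 on that of epoxomicin and 16822 on that of ONX0914, which was 2.71-fold the level with the broad inhibitors. *Lfng*, a glycosyltransferase that modifies Notch, read 844, 148, 86.4 and 343. ONX0914 lay between DMSO and the broad inhibitors in both. The 8 with the highest share were *Ltb*, *C130050O18Rik*, *Dusp7*, *Mxd3*, *Cx3cr1*, *Kbtbd11*, *B3gnt7* and *Ccne1*, from 73.5% down to 57.5%, although the other probes of *Kbtbd11* gave differences of -0.60 and 0.53. *Cx3cr1*, the fractalkine receptor, read 1598, 271, 261 and 487.

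Genes of DNA replication and of mitosis had small median differences of opposite sign. Over 31 replication genes the median was -0.13, and *Ccne1*, cyclin E1, was the highest at 0.93. Over 25 genes of G2 and mitosis the median was 0.28, none differed by 2-fold and 19 were above both broad arrays (6013 of 12777 over all genes), with *Aurkb*, a kinase of the chromosomal passenger complex, the highest at 0.86 and *Cenpe* the lowest at -0.18. *Ccnb1*, cyclin B1, read 9294, 3277, 3006 and 5403. For *Ccnb1* ONX0914 lay between DMSO and the broad inhibitors.

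Metabolic lists were also modest. Among 23 genes of cholesterol synthesis and uptake the median difference was -0.22, and *Insig1* and *Hmgcs1*, both targets of SREBP2, were lower by 2-fold or more. *Hmgcs1*, an early enzyme of the pathway, read 16572 on the DMSO array, 18216 on that of MG132, 24757 on that of epoxomicin and 7829 on that of ONX0914. *Insig1* read 726, 1113, 1489 and 459. In both genes ONX0914 was below DMSO as well as below the broad inhibitors. *Dhcr7* was the highest at 0.62. The 5 cholesterol efflux genes ran from *Mylip* at -0.48 to *Apoe* at 0.38 with a median of -0.33. Of 15 HIF-1 targets *Ndrg1* was lower by 2-fold or more (-1.21, 16.2% kept), *Slc2a1*, a glucose transporter, was the highest at 0.82, and the median was 0.25. All 24 oxidative phosphorylation genes were above both broad arrays with this scaling, as were 6013 of all 12777 genes, and none differed by 2-fold, with a median of 0.21 and a range from *Uqcrc2* at 0.03 to *Ndufa4* at 0.76. The 21 autophagy genes had a median of -0.05, which turned sign with scaling to each array's median, and ran from *Atg14* at -0.59 to *Gabarapl2* at 0.36, and *Sqstm1*, the receptor p62, stood at -0.51 with 79.6% kept.

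The 12 genes farthest below both broad arrays were *Unc93a*, *Rab15*, *Ttll2*, *Rgcc*, *Stmn4*, *Bfsp2*, *Amhr2*, *Rnd3*, *Cyp4f18*, *Plekhg4*, *Il10* and *Clu*. *Ttll2*, of the tubulin-ligase-like family, read 71.7 on the DMSO array, 7127 on that of MG132, 9190.4 on that of epoxomicin and 668 on that of ONX0914, 12.1-fold lower than the broad inhibitors. *Stmn4*, a stathmin that binds tubulin, read 401, 6676, 7331 and 942, 7.43-fold lower, and its other probe gave -2.79 beside -2.89. *Clu*, the secreted chaperone clusterin, read 57.9, 523, 1297 and 101, 8.14-fold lower. In each of these the broad inhibitors lay far above DMSO, with ONX0914 between. *Rab15*, a small GTPase, had a difference of -3.72, but its other probe gave -0.16. *Unc93a* read 1080.2, 1470.3 and 78.5 with MG132, epoxomicin and ONX0914 and was not well above background with DMSO.

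The 12 genes farthest above both broad arrays were *Trim17*, *Serpinb1b*, *Nanog*, *Kcnj15*, *Pirb*, *Olfr1232*, *Pira2*, *Prox2*, *Frem3*, *BC028528*, *Ccnd1* and *Mcf2l*. *Trim17*, a ubiquitin ligase, read 24.8 on the DMSO array, 22.0 on that of MG132, 21.3 on that of epoxomicin and 124 on that of ONX0914, 5.72-fold higher. *Serpinb1b*, *Kcnj15*, *Olfr1232*, *Prox2* and *Frem3* were as dim, with ONX0914 signals from 58.1 to 90.4 and broad signals at or under 33.0, and the other probe of *Frem3* had the opposite sign (-0.60). These 6 genes lay close to the limit of detection on the broad arrays. *Pirb* and *Pira2*, paired immunoglobulin-like receptors of myeloid cells that share sequence, were 2.81-fold and 2.84-fold higher. *Pirb* read 527 with DMSO, 132, 120.1 and 353.

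Some genes were above background on one side only and have a bound in place of a value. The bound sets the mean signal of the bright side against the larger of the lowest signal well above background on the dim side and the signal of the dim probe itself. There were 262 genes well above background with both broad inhibitors but not with ONX0914, 94 of them at least 2-fold lower by this bound. The 5 with the largest bound were *Spink2* (at least 48.4-fold lower), *Grhl2* (40.6), *Nts* (20.4), *Islr2* (14.3) and *Gm11563* (14.2). *Nts*, the precursor of neurotensin, read 209.7 with MG132 and 742 with epoxomicin. In the other direction there were 337 genes, 77 of them at least 2-fold higher with ONX0914. The largest bounds were those of *Abcg8* (at least 8.29-fold higher), *Rarres2* (8.08), *4930412O13Rik* (6.83), *Art4* (6.42) and *Spink14* (6.06), none of them well above background with DMSO. Their ONX0914 signals ran from 119 (*Spink14*) to 163 (*Abcg8*).

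The cells carried macrophage markers on all 3 inhibitor arrays. *Csf1r*, *Spi1*, *Adgre1*, *Lyz2*, *Itgam*, *Cd14* and *Ptprc* were all well above background, and *Cd68* was not analysed here. *Csf1r*, the receptor of macrophage colony-stimulating factor, read 183607, 185822 and 201426 with MG132, epoxomicin and ONX0914. Of 22 measured macrophage genes, *Ccr2*, the receptor that brings monocytes into tissue, was lower by 2-fold or more with ONX0914, at -1.33 with 12.1% kept. *Lyz2* was the highest at 0.94, and the median was 0.11. Of 16 markers of T, B and NK cells, epithelium, fibroblasts and endothelium, 6 were measured and none differed by 2-fold, from *Krt5* at -0.37 to *Nkg7* at 0.42. The other 10 did not pass the filter, among them *Epcam*, *Col1a1* and *Tek*, which were well above background on none of the 3 arrays. *Nkg7*, an NK cell marker, read 2026, 1844 and 2583 with MG132, epoxomicin and ONX0914, so not every marker of another cell type was dim. Among 11 reference genes the median difference was 0.15. *Gusb* was 2-fold or more higher at 1.12 and *Tbp* the lowest at -0.15, while *Hprt* stood at 0.15 and *Gapdh* at -0.02.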

How the data were processed

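RNA of J774.1 cells kept for 4 hours with DMSO, MG132, epoxomicin or ONX0914 (inhibitors at 1 μM) was hybridized to 1 array each. The authors deposited the scanner output of Feature Extraction 10.7.1.1, in which each spot has an intensity before and after background subtraction within its array. Their GeneSpring values, log2 relative to each probe's median over the arrays, were deposited too and served as an alternative. The deposited intensity itself was not scaled across arrays.

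Of 43020 spots per array that were not controls, 159 to 194 marked as outliers were left out. Log2 of the processed signal was taken, the array's 75th percentile (1448 to 1669) was subtracted, and repeated spots were averaged. From 60.3% to 63.1% of spots were well above background and none was saturated. Of 39429 probes, 26575 (67.4%) were named through their transcripts with RefSeq gene names of GRCm38.p6, and the build of the files, mm9, was not used for coordinates. The probe with the highest mean over the 3 inhibitor arrays stood for a gene. Probes match no gene here for 13 of 627 listed genes, among them *Cxcl11*, *Mx1*, *Mx2* and *Hspa1b*, which were not analysed here. A few list members are not reported here.

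No test was made, because each condition has 1 array, and no P value is given. The number of arrays limits the precision. The comparison, the 29 gene lists and the genes named were chosen with earlier results of these data known. Named are the 12 genes farthest above and below both broad arrays, the extremes of each list and its members at 2-fold or more, the genes the study names for this experiment, 4 proteasome subunits, the 8 lowest and 8 highest shares kept on each side, the 5 largest bounds on each side and other list members needed to describe a list. The calculation of the difference was tested on simulated data with added shifts larger than the 2-fold limit. The shares kept and the bounds were not part of that test. The tools were R 4.3.3 (limma 3.58.1) and Python 3.11.15 (matplotlib 3.10.9, pandas 2.3.3, numpy 2.4.6).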

Additional observations from a re-analysis of the deposited data

Results flagged for a closer look

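Among the genes of the shared broad response, 2-fold or more away from DMSO, 26 had ONX0914 on the other side of DMSO. In 4 of them ONX0914 was farther from DMSO than 0.32 on the log2 scale, and for each of these the difference was not tested. *BC028528* stood at -1.03 with MG132 and -1.28 with epoxomicin, but at 0.32 with ONX0914. *Efr3b*, which anchors a lipid kinase at the plasma membrane, stood at 1.14 and 1.76 with the broad inhibitors and at -0.50 with ONX0914. *Irs2*, an adaptor of the insulin receptor, stood at 1.01 and 1.69, and at -0.43 with ONX0914. *Marchf11*, a membrane-bound ubiquitin ligase, stood at 1.12 and 1.19, and at -0.41 with ONX0914. All of these distances start from the same DMSO array.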

How the results depend on the processing

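No named gene described as at least 2-fold different reversed under any alternative run, and no list median reached 2-fold. All 93 named genes past the 2-fold limit kept their sign in 1004 recomputed values, of which 952 were still past it, and 72 of the 93 were when set against MG132 alone, the lowest number of these alternatives, and 79 with normexp background correction. Of 28 list medians 23 kept their sign, and those of NF-kB, Nrf2, autophagy, immunoproteasome and ubiquitin genes crossed 0. No paired analysis was possible because each condition has 1 array, so there is also no replicate to leave out. The causes of the shifts below were not tested, except that fewer or more genes entered where the filter or the limit differed.

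The counts of genes higher and lower with ONX0914 were 81 and 339. They were 48 and 220 against each broad array, 592 and 1055 at a 1.5-fold limit, 2 and 47 at 4-fold, 32 and 208 with normexp, 583 and 955 with no filter on dim probes, and 41 and 201 without the dimmest 25% of genes. Against epoxomicin alone 124 were higher. Lower genes made up 80.7% of the calls, 62.1% with no filter and 72.0% with scaling to the median.

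The median differences of 6 lists were recomputed against a tolerance of 0.07. Against MG132 alone they were -0.78 (type I interferon), -0.48 (interferon-γ) and -0.36 (heat shock). Against epoxomicin alone they were -0.996, -0.83, -0.54 and, for immediate early genes, -0.75. Scaling to each array's median, which moved the median of all genes from 0.04 to 0.12, gave -0.80, -0.57, -0.36 and -0.55 for these 4 lists, -0.33 for integrated stress response regulators and 0.26 for the 20S core. Normexp gave -0.35 for heat shock and -0.54 for immediate early genes, and the mean over probes gave -0.34 and -0.72. With no filter on dim probes the integrated stress response regulators stood at -0.49. The median share kept stayed between 49.0% and 58.8% over the alternatives.

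Of 151 named genes, 31 had another measured probe, which had the same sign in 28 and differed in *Frem3*, *Kbtbd11* and *Tfrc*.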
